A study of Mus musculus with 107 samples.

Results

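BNL 1ME A.7R.1 (BNL) and Hepa 1-6 are the 2 models of hepatocellular carcinoma (HCC) among the 12 mouse syngeneic tumor models of the study, and both were profiled by RNA-seq before any treatment. The tumors compared here are all those labelled as untreated baseline tumors of these models, 3 of BNL and 3 of Hepa 1-6, which make 6 of the 107 tumors in the series, and all 50686 genes of the table were considered. BNL is an established line of chemically transformed embryonic liver cells from a BALB/c mouse, and its tumors grew in BALB/cAnNCrlCrlj mice. Hepa 1-6 is an established line from a hepatoma of a C57L mouse, and its tumors grew in C57L/J mice. Cells of either line were placed under the skin of the right flank of mice 7 weeks old, and treatment-naive tumors were taken at a volume of about 100 mm3. Untreated (NT) tumors collected on day 8, which number 3 for each model, served as a second and separate set of tumors for the same contrast. The 29 treatment-naive tumors of the other 10 models served as the reference outside the liver. These grew in BALB/cAnNCrlCrlj (4T1, CT26.WT, EMT6, RAG and Renca), C57BL/6NCrl (B16-F10 and MC38), C57BL/6JCrl (LL/2), C3H/HeNCrl (MBT2) and DBA/2NCrl (KLN205) mice. None of the tumors used here received an agent.

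Each model is 1 cell line in 1 mouse strain, so a difference between the models, between the lines and between the strains cannot be told apart. The tumors grew outside the liver, and each sample is a whole tumor with the blood vessels, fibroblasts and leukocytes of the host. In such bulk RNA, fewer cells of a type and less RNA per cell cannot be told apart. The labels number the tumors of a group without naming an animal, so p-values measure the spread between these tumors.

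Hepatocytes make most plasma proteins, and their identity is held by a set of transcription factors that sustain each other, among them HNF4α, the FOXA factors, C/EBPα and PROX1. Fetal liver cells and many liver cancers also make α-fetoprotein and glypican-3. In the adult liver, Wnt signaling through β-catenin sets which genes are used around the central vein, and its target genes are often high in HCC. HCC is rich in blood vessels fed by VEGF-A, and T cells that release interferon-γ raise antigen presentation, CXCL9 and PD-L1 in the tumor. These programs give the order of the results.

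The labels were checked first. The study's methods list male hosts for both models, but the 3 treatment-naive BNL tumors had Xist, the RNA of the inactive X chromosome, at 35.3, 41.2 and 55 TPM and the Y-linked gene Ddx3y at 0, 0 and 0 TPM. The BNL tumors of NT day 8 had the opposite pattern, with Xist at 0, 0.29 and 0.01 TPM and Ddx3y at 3.7, 4.25 and 5.07 TPM. Hepa 1-6 tumors had Ddx3y at 6.44, 4.02 and 7.37 TPM when treatment-naive and at 3.62, 2.83 and 4.17 TPM on day 8, beside high Xist at both times. The treatment-naive BNL tumors therefore lack the Y-linked RNA that male host cells carry, and this sets them apart from the other untreated tumors of both models. On day 8 the Y-linked genes were present in both models, so the counts of each gene list are also given for that day. Values of single genes are those of treatment-naive tumors unless day 8 is named, and sex-linked RNA moves with the model in them. The expression profile of the treatment-naive BNL tumors was still closest to the day 8 BNL tumors, with Pearson's r = 0.968 across 17428 genes, against 0.929 for EMT6, the nearest other model.

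Tissue composition and library composition also differed. TPM (the abundance of a gene's transcripts, a level corrected for gene length and scaled to the same sum in every tumor) leaves the sequencing depth unknown. Protein-coding genes took 45.3 to 49.0% of TPM in treatment-naive BNL and 56.1 to 59.1% in treatment-naive Hepa 1-6 tumors, while the non-coding RNA Rn7s1 took 14.6 to 15.95% against 5.33 to 6.85%. Summed over a list of 14 genes, skeletal muscle RNA was at 409.6 to 965 TPM in treatment-naive BNL and at 9.95 to 219.9 TPM in treatment-naive Hepa 1-6 tumors, and on day 8 it was at 55.6 to 163 and 22.3 to 63.6 TPM. Of these 14 genes, 10 were called higher in BNL before treatment, as were 4 of the 9 tested adipocyte genes, and creatine kinase Ckm was at 123, 64 and 42.4 TPM in BNL and at 14.6, 16.7 and 0.24 TPM in Hepa 1-6. The calls of the muscle genes Ckm, Myh4, Ttn and Atp2a1 were lost without 1 tumor or another. Summed red cell RNA moved the other way and changed sides by day 8, with 188 to 290 against 421 to 463 TPM before treatment and 188 to 296 against 119.8 to 151 TPM on day 8, although the hemoglobin gene Hbb-bt was lower in BNL at both times. Skin genes were at no more than 6.55 TPM in sum in every tumor. The part of these tissues in the results was not tested.

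Differences are given as BNL minus Hepa 1-6 on the scale of log2(TPM + 1), which understates the change of genes near 0, and a gene was called at an adjusted p under 0.05 in limma. Of 17282 genes tested in the treatment-naive tumors, 3206 (18.6%) were higher and 5875 (34%) lower in BNL, 52.5% in all. The tumors of the models did not overlap for 10642 genes (61.6%). On day 8, 6674 (39.6%) of 16835 genes were higher and 4025 (23.9%) lower, 63.6% in all. The balance of directions followed the scaling. The median difference over all genes was -0.16 before treatment and 0.20 on day 8 as deposited, and 0.003 before treatment after upper-quartile rescaling, with which 4477 genes (25.9%) were higher and 4924 (28.5%) lower, 54.4% in all. On day 8 the same rescaling gave 4970 higher and 5418 lower, 61.8% in all. In the treatment-naive tumors, 3206 genes higher and 4257 lower held their call as deposited and under both rescalings. List counts below are to be read against these shares. A member that reached the minimum of 1 TPM only through the model in which it is high had to differ. Before treatment, members that reached 1 TPM in Hepa 1-6 but not in BNL made 9 of the 25 tested in the liver factor list, 8 of 21 in the Wnt list, 6 of 22 in the epithelial list, 13 of 29 in the T cell list, 8 of 20 in the cytotoxic list, 6 of 8 in the B cell list, 6 of 15 in the biliary list, 4 of 18 in the list of the T cell-inflamed profile and 5 of 17 in each of the liver metabolism and drug metabolism lists. On day 8 such members made 10 of 24 tested liver factors, 7 of 19 Wnt and 9 of 21 epithelial genes. They were 13 of 28 T cell, 6 of 18 cytotoxic, 3 of 6 B cell and 7 of 14 biliary genes. They were also 4 of 18 genes of the T cell-inflamed profile, 7 of 16 of liver metabolism and 7 of 15 of drug metabolism. The counts of these lists at both times are therefore in part set by that minimum, and summed levels are over all members. Where the text names the few genes of a list that stand apart by symbol alone, they were named after their values were seen. Between the separate sets of tumors, 2804 of the 3102 genes called higher in the treatment-naive tumors and tested on day 8 were again called higher, which is 90.4% of the first list and 43.2% of the 6484 called on day 8. For lower genes 3510 were shared, 62.2% of 5645 and 88.6% of 3963, while 316 genes called lower before treatment were called higher on day 8. With upper-quartile rescaling the shares were 76.3% and 68.2% for higher genes and 81.0% and 72.3% for lower genes. The opposite call on day 8 was then made for 84 higher and 57 lower genes, against 13 and 316 as deposited. The plot of each gene's difference at both times shows this repeat.

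**Figure D1:**
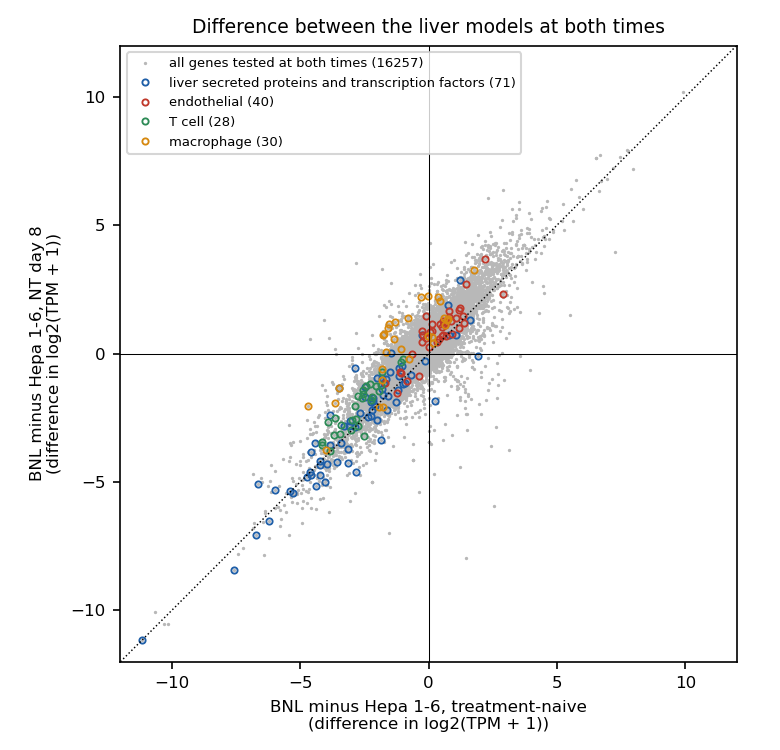
Each point is 1 of the 16257 genes tested at both times, with the BNL minus Hepa 1-6 difference in log2(TPM + 1) in treatment-naive tumors on the horizontal axis and in NT day 8 tumors on the vertical axis, 3 tumors per model at each time. Most genes with a large difference lie near the diagonal, with Alb at the far negative end at both times (-11.15 and -11.16) and Crabp1 at the far positive end (9.90 and 10.19).

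RNA of the plasma proteins of the liver was higher in Hepa 1-6. Summed over 47 genes, plasma protein RNA was at 7484 to 7954 TPM in Hepa 1-6 and 630.2 to 807 TPM in BNL before treatment, and at 7495 to 9052 against 1952 to 2182 TPM on day 8. Alb (ENSMUSG00000029368), the gene of serum albumin, was at 2395, 2316 and 2277 TPM in the Hepa 1-6 tumors and at 0, 0.08 and 0 TPM in the BNL tumors. Igfbp1, which binds insulin-like growth factors, was at 1193, 1372 and 1270.1 TPM in Hepa 1-6 and listed at 0 in each BNL tumor. Rbp4, the carrier of vitamin A in plasma, was at 500.4, 504 and 463 TPM against 1.32, 1.81 and 1.55 TPM, and transferrin Trf at 1389, 1352 and 1350.1 TPM against 8.71, 12.6 and 18.4 TPM. None of these genes overlapped between the models, and the log2 differences were -11.15 (SE 0.081, adjusted p = 4.83e-09) for Alb, -10.32 (SE 0.089, adjusted p = 7.70e-09) for Igfbp1, -7.58 (SE 0.10, adjusted p = 5.79e-08) for Rbp4 and -6.64 (SE 0.23, adjusted p = 2.06e-06) for Trf. Ttr, which carries thyroid hormone, was at 15.7, 25.5 and 13.5 TPM in Hepa 1-6 and listed at 0 in BNL. Apoa1, the main protein of high-density lipoprotein, was at 16.5, 25.2 and 20.1 TPM against 0, 0.09 and 0 TPM, with a difference of -4.37 (SE 0.18, adjusted p = 4.09e-06). Of the 47 members, 29 were tested, and 19 of these reached 1 TPM in Hepa 1-6 but not in BNL, so that the direction of their calls follows from the minimum. The 3 called higher in BNL included Lcat and Serpinf1. Another 18 members were below the minimum, at no more than 2.33 TPM in any of the 6 tumors, and so were low in both models. On day 8 Alb was at 2399.6, 2341 and 2129 TPM in Hepa 1-6 and listed at 0 in BNL.

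**Figure D2:**
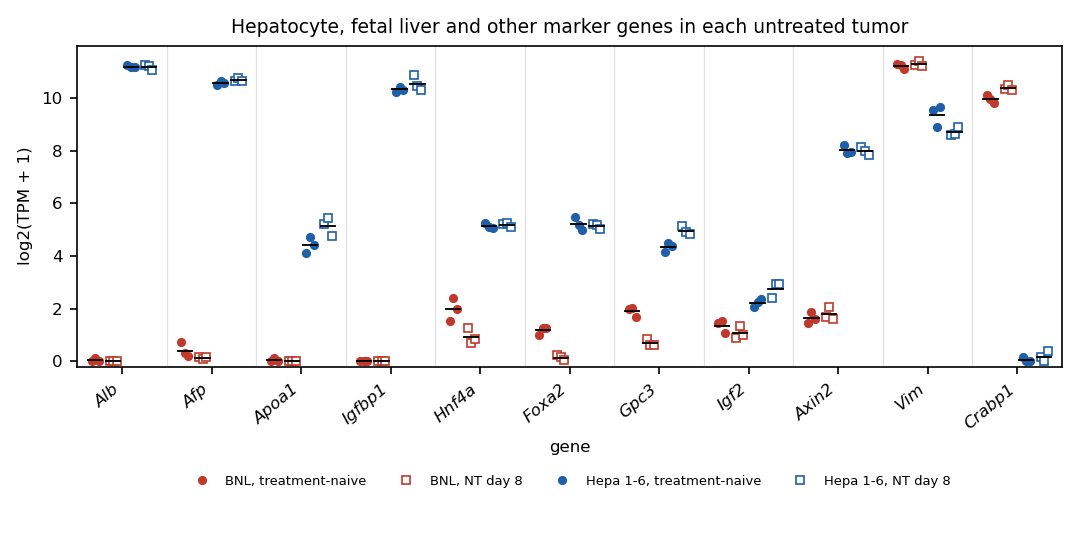
The vertical axis is log2(TPM + 1), genes stand along the horizontal axis, each point is 1 tumor of BNL or Hepa 1-6, treatment-naive or NT day 8 (3 tumors each), and short lines mark group means. Alb, Afp, Apoa1, Igfbp1, the factors Hnf4a and Foxa2, Gpc3, Igf2 and Axin2 are higher in Hepa 1-6 at both times, and Vim and Crabp1 are higher in BNL at both times.

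Coagulation RNA, summed over 16 genes, was at 149 to 185 TPM in Hepa 1-6 and 2.07 to 7.98 TPM in BNL before treatment, and at 96.3 to 108 against 1.23 to 2.79 TPM on day 8. Of these genes 7 were tested, 6 of which reached 1 TPM in Hepa 1-6 but not in BNL, and 9 were below the minimum, at no more than 1.26 TPM in any of the 6 tumors. Fibrinogen β (Fgb) was at 41.5, 43.6 and 39.6 TPM in Hepa 1-6 and at 0, 0.02 and 0 TPM in BNL, and factor X (F10) at 81.1, 54.8 and 83.8 TPM against 0.86, 1.77 and 4.68 TPM. Protein C (Proc), an anticoagulant, differed by -4.21 (SE 0.13, adjusted p = 1.36e-06) and factor VII (F7) by -3.83 (SE 0.27, adjusted p = 4.36e-05). Of 11 complement genes, 8 were lower and 1 (Masp1) higher in BNL, and on day 8 the counts were 7 and 2 (Masp1 and Masp2). At each time 3 of the 11 reached 1 TPM only in Hepa 1-6 and 1 only in BNL, so the minimum set their direction. C4bp, the binding protein of C4, was at 43.5, 39 and 32.2 TPM in Hepa 1-6 and listed at 0 in BNL, while the central component C3 was at 704, 580.5 and 803 TPM against 15, 54.1 and 38 TPM, so some C3 RNA remained in BNL.

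The transcription factors of hepatocytes were low in BNL, though few were at 0. Hnf4a, the nuclear receptor at the center of the network, was at 37.1, 32.9 and 32.2 TPM in Hepa 1-6 and 1.93, 4.34 and 2.94 TPM in BNL, a difference of -3.15 (SE 0.22, adjusted p = 3.59e-05). Foxa2, a pioneer factor of the liver, was at 43.7, 34.8 and 30.5 against 1.02, 1.4 and 1.4 TPM (difference -4.03, SE 0.16, adjusted p = 3.68e-06), and Foxa3 differed by -4.56 (SE 0.16, adjusted p = 2.13e-06). Prox1 was at 14.4, 10.6 and 13.9 against 0.19, 0.6 and 0.47 TPM (difference -3.30, SE 0.18, adjusted p = 1.56e-05). All of these were separate between the models. Of 25 liver factors tested, 22 were lower and 1 (Gata6) higher in BNL before treatment, with a median of -1.74, and on day 8 the counts were 22 and 1 (Rxra) of 24. The levels of Cebpa came together by day 8. It was at 4.85, 10.7 and 8.06 TPM in BNL against 23.9, 20.2 and 24 TPM in Hepa 1-6 before treatment (difference -1.47, SE 0.25, adjusted p = 0.00209), and on day 8 it was at 12.5, 14.4 and 13.5 against 12.9, 11.6 and 15.7 TPM, with overlapping tumors and a difference of 0.013 (SE 0.12, adjusted p = 0.935).

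Genes of liver metabolism were mostly lower in BNL. Of 17 tested genes of hepatocyte metabolism, 11 were lower and 1 (Pck1) higher in BNL. On day 8 10 of 16 were lower and 3 higher, Cpt1a among them. The liver pyruvate kinase Pklr was at 15.2, 16.3 and 14.1 TPM in Hepa 1-6 and 2.57, 2.02 and 1.78 TPM in BNL. Of 17 tested genes of drug metabolism and transport, 13 were lower and 0 higher, with a median of -1.95, and on day 8 13 of 15 were lower. Abcc2, the exporter of bilirubin conjugates into bile, was at 69.9, 67.2 and 74.7 TPM in Hepa 1-6 and 0.22, 0.13 and 0.05 TPM in BNL (difference -5.98, SE 0.11, adjusted p = 2.58e-07), and Aldh1a1, which makes retinoic acid, differed by -4.39 (SE 0.18, adjusted p = 3.82e-06).

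The fetal liver list split, with 6 genes higher and 9 lower in BNL of 19 tested, and 8 higher and 10 lower on day 8. Afp, the gene of α-fetoprotein, was at 1420.5, 1577 and 1522 TPM in Hepa 1-6 and 0.65, 0.25 and 0.14 TPM in BNL (difference -10.15, SE 0.15, adjusted p = 6.30e-08). Gpc3, which encodes glypican-3, was at 16.8, 21.4 and 19.8 against 2.97, 3.08 and 2.19 TPM (difference -2.44, SE 0.15, adjusted p = 2.26e-05), and the guidance receptor Robo1 differed by -4.09 (SE 0.12, adjusted p = 1.32e-06). Igf2, the fetal growth factor, was low in both models, at 3.14, 3.73 and 4.16 TPM in Hepa 1-6 and 1.77, 1.87 and 1.1 TPM in BNL (difference -0.87, SE 0.19, adjusted p = 0.0071). Other fetal genes were higher in BNL. Hmga2, a chromatin protein of embryonic cells, was at 127, 103 and 93.7 TPM in BNL and 2.25, 1.26 and 2.56 TPM in Hepa 1-6 (difference 5.19, SE 0.20, adjusted p = 3.23e-06). The imprinted RNA H19 was at 38.6, 29 and 20.1 against 4.26, 1.66 and 1.75 TPM (difference 3.12, SE 0.33, adjusted p = 0.000243), and on day 8 at 7.59, 8.83 and 6.77 against 2.81, 4.5 and 4.71 TPM (difference 0.82, SE 0.18, adjusted p = 0.00732). Peg10, another imprinted gene, was at 17.9, 12.4 and 10.5 against 0.27, 0.12 and 0.27 TPM (difference 3.55, SE 0.21, adjusted p = 1.88e-05). On day 8 Hmga2 (difference 5.16, SE 0.10, adjusted p = 3.28e-07) and Peg10 (difference 3.62, SE 0.14, adjusted p = 2.90e-06) were again higher in BNL. Skeletal muscle RNA was higher in the treatment-naive BNL tumors as well, and its part in these values was not tested.

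Wnt target genes were high in Hepa 1-6. Axin2, a feedback inhibitor that nearly every cell with active β-catenin induces, was at 293, 241 and 249 TPM in Hepa 1-6 and 1.77, 2.64 and 2.05 TPM in BNL (difference -6.38, SE 0.13, adjusted p = 3.46e-07). The other feedback inhibitors Nkd1 (193, 192 and 164 against 0.12, 0.3 and 0.26 TPM) and Notum (72.5, 65.5 and 49.1 against 0.13, 0.26 and 0 TPM) and the target factor Sp5 (112, 98.4 and 85.8 against 0.08, 0.12 and 0.18 TPM) were separate in the same direction. Their differences were -7.23 (SE 0.12, adjusted p = 9.43e-08) for Nkd1, -5.80 (SE 0.18, adjusted p = 1.32e-06) for Notum and -6.46 (SE 0.13, adjusted p = 2.88e-07) for Sp5. Lgr5, a receptor that amplifies Wnt signals, was at 87.8, 60.3 and 61 against 0.54, 0.77 and 0.83 TPM (difference -5.35, SE 0.17, adjusted p = 1.53e-06). Of 21 list members tested, 14 were lower and 3 higher in BNL, with a median of -2.33, and on day 8 16 and 2 (Apcdd1 and Lef1) of 19. The 3 higher members before treatment were Apcdd1 (a difference of 2.92), the factor Lef1 (0.99) and cyclin D1, Ccnd1 (0.31).

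Epithelial genes were mostly low in BNL and genes of mesenchymal cells mostly high. Epcam, a cell surface glycoprotein of epithelia, was at 19.9, 23.6 and 16.4 TPM in Hepa 1-6 and 0, 0.54 and 1.24 TPM in BNL (difference -3.78, SE 0.30, adjusted p = 6.89e-05), and the tight junction gene Cldn4 was at 68.6, 73.1 and 56.7 against 0, 0.09 and 0.63 TPM (difference -5.78, SE 0.21, adjusted p = 2.37e-06). The keratins of simple epithelia were lower in BNL but present, with Krt8 at 71.9, 83.2 and 76.8 TPM against 368, 321 and 317 TPM (difference -2.10, SE 0.098, adjusted p = 7.67e-06) and Krt18 at 45.7, 66.7 and 69 against 964, 896 and 836 TPM (difference -3.89, SE 0.16, adjusted p = 4.72e-06). In the epithelial list, 19 of 22 genes were lower and 1 higher in BNL before treatment, and on day 8 17 of 21 were lower and 2 (Cdh1 and Cldn1) higher. The higher one before treatment was Cdh1, the gene of E-cadherin, at 9.94, 15.4 and 15.7 TPM in BNL and 1.79, 0.99 and 2.15 TPM in Hepa 1-6 (difference 2.47, SE 0.24, adjusted p = 0.000168). Krt19, a keratin of bile duct cells in the biliary list, was also higher in BNL, at 38.7, 40.8 and 45.8 against 2.02, 0.89 and 0.76 TPM (difference 4.31, SE 0.22, adjusted p = 9.67e-06), among 15 members of which 11 were lower (on day 8 11 of 14). Cdh2, the gene of N-cadherin, which hepatocytes also carry, was at 4.1, 3.84 and 2.99 against 21.2, 21.3 and 21.2 TPM (difference -2.27, SE 0.13, adjusted p = 1.50e-05).

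Of 31 mesenchymal genes, 19 were higher in BNL and 10 lower, with a median of 0.83. The intermediate filament gene Vim was at 2478, 2404 and 2159 TPM in BNL and 744, 474 and 807 TPM in Hepa 1-6 (difference 1.83, SE 0.20, adjusted p = 0.000301). The repressor of epithelial genes Zeb1 was at 86.3, 80.6 and 88.1 against 29.7, 27.4 and 31.2 TPM (difference 1.50, SE 0.089, adjusted p = 1.92e-05), and the mesenchymal factor Prrx1 at 179, 166 and 150.5 against 23, 15.3 and 26 TPM (difference 2.92, SE 0.19, adjusted p = 2.88e-05). Cav1, the main protein of caveolae, differed by 3.63 (SE 0.26, adjusted p = 4.04e-05) and S100a4 by 3.24 (SE 0.20, adjusted p = 2.07e-05). Thy1, carried by fibroblasts and T cells alike, was lower in BNL at 14.6, 22.1 and 22 against 122, 100.3 and 163 TPM (difference -2.65, SE 0.22, adjusted p = 8.87e-05). On day 8 the counts were 21 higher and 10 lower.

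Matrix genes of fibroblasts were partly higher in BNL, and more of them on day 8. Of 33 genes, 14 were higher and 5 (Dcn, Fbln1, Mfap5, Mmp13 and Timp2) lower in treatment-naive BNL, with a median of 0.29, and 24 were higher and 4 (the same without Mfap5) lower on day 8, with a median of 2.11. Postn, the matrix protein periostin, was at 1256, 1225 and 1122 TPM in BNL against 196, 118 and 195 TPM in Hepa 1-6 (difference 2.85, SE 0.20, adjusted p = 4.09e-05), and on day 8 at 2863, 3637 and 3225 against 64.9, 73.5 and 140.3 TPM (difference 5.19, SE 0.28, adjusted p = 1.19e-05). Col1a1, the main collagen chain, was at 1631, 1640.4 and 1557 against 840.1, 405 and 1079 TPM (difference 1.17, SE 0.33, adjusted p = 0.0212), a call that was lost without any single BNL tumor (adjusted p = 0.0509 to 0.0573). On day 8 Col1a1 was at 2685, 2926 and 2918 against 349.7, 368 and 680.3 TPM (difference 2.67, SE 0.25, adjusted p = 0.000121). Dcn, the proteoglycan decorin, went the other way, at 159, 157 and 119.7 TPM in BNL and 680.1, 736 and 659.6 TPM in Hepa 1-6 (difference -2.26, SE 0.13, adjusted p = 1.62e-05), as did the collagenase Mmp13, at 5.2, 7.34 and 7.61 against 186, 105 and 128 TPM (difference -4.16, SE 0.23, adjusted p = 1.41e-05). Muscle and adipocyte RNA was higher in the treatment-naive BNL tumors and its part in these differences was not tested.

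Endothelial genes were in part higher in BNL before treatment, with most not called, and mostly higher on day 8. The 6 genes of the study's MVD gene score (Cdh5, Eng, Kdr, Pcdh12, Sparcl1 and Tek) were all higher in BNL at both times, with a median difference of 1.23 before treatment and 1.40 on day 8. The study chose these genes partly on treatment-naive tumors of this series, so their direction is not independent evidence. Cdh5, the cadherin of endothelial junctions, was at 29.8, 31.5 and 29.6 TPM in BNL and 16.1, 12.6 and 24 TPM in Hepa 1-6 (difference 0.80, SE 0.21, adjusted p = 0.0162). Kdr, the main receptor of VEGF-A, was at 9.8, 13.1 and 9.55 against 3.08, 2.54 and 5.14 TPM (difference 1.39, SE 0.23, adjusted p = 0.00206), and the angiopoietin receptor Tek at 4.12, 4.37 and 4.01 against 1.43, 1.38 and 2.94 TPM (difference 0.87, SE 0.22, adjusted p = 0.0149). Eng, a coreceptor of TGF-β in endothelial cells, was at 59, 67.7 and 57.3 against 22.4, 16.4 and 26.9 TPM (difference 1.47, SE 0.18, adjusted p = 0.000472), Pcdh12 at 4.37, 5.08 and 4.96 against 1.54, 1.49 and 2.32 TPM (difference 1.07, SE 0.17, adjusted p = 0.00165), and Sparcl1 at 78.7, 80 and 72.2 against 16.2, 13.3 and 19.2 TPM (difference 2.19, SE 0.14, adjusted p = 2.50e-05). The models did not overlap in any of the 6 genes. The calls of Cdh5 (adjusted p = 0.051 and 0.0542) and Tek (0.0512 and 0.0514) were lost without treatment-naive BNL tumor 2 or Hepa 1-6 tumor 1.

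Over a wider list of 42 endothelial genes, 15 were higher and 5 (Ecscr, Esam, Flt1, Flt4 and Vwf) lower in treatment-naive BNL, with a median of 0.48, and with upper-quartile rescaling 24 were higher and 5 lower. On day 8, 31 of 40 were higher and 6 lower, against a background of 39.6% and 23.9%. The summed level of the list was 634 to 709 TPM in BNL and 379 to 577 TPM in Hepa 1-6 before treatment, and 902 to 959 against 344 to 439 TPM on day 8. The apelin receptor Aplnr, found on growing vessels, was at 15.9, 17.7 and 14.9 TPM in BNL and 1.16, 1.29 and 1.42 TPM in Hepa 1-6 (difference 2.90, SE 0.13, adjusted p = 5.57e-06). Pecam1, which encodes CD31, the antigen used to stain vessels in the study, overlapped before treatment at 30.8, 34.5 and 37.8 against 31.9, 27.6 and 40.1 TPM, with a difference of 0.061 (SE 0.15, adjusted p = 0.764), and was higher in BNL on day 8 at 43, 45 and 33.9 against 18.2, 22 and 26 TPM (difference 0.86, SE 0.16, adjusted p = 0.00303). Flt4, the receptor of lymphatic vessels for VEGF-C, was lower in BNL, at 2.72, 3.9 and 2.46 against 13.2, 10.9 and 12.1 TPM (difference -1.71, SE 0.17, adjusted p = 0.000171). Of 13 genes of pericytes, 3 (Cspg4, Des and Pdgfrb) were higher and 6 lower before treatment, and 3 (Angpt1, Cspg4 and Pdgfrb) and 7 on day 8. Their summed level overlapped before treatment, at 192 to 205 TPM in BNL against 158 to 225 TPM in Hepa 1-6, and was higher in BNL on day 8, at 288 to 299 against 202 to 222 TPM. Cspg4, which encodes NG2, was at 34.8, 33.4 and 32.8 against 7.34, 4.94 and 5.07 TPM.

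**Figure D3:**
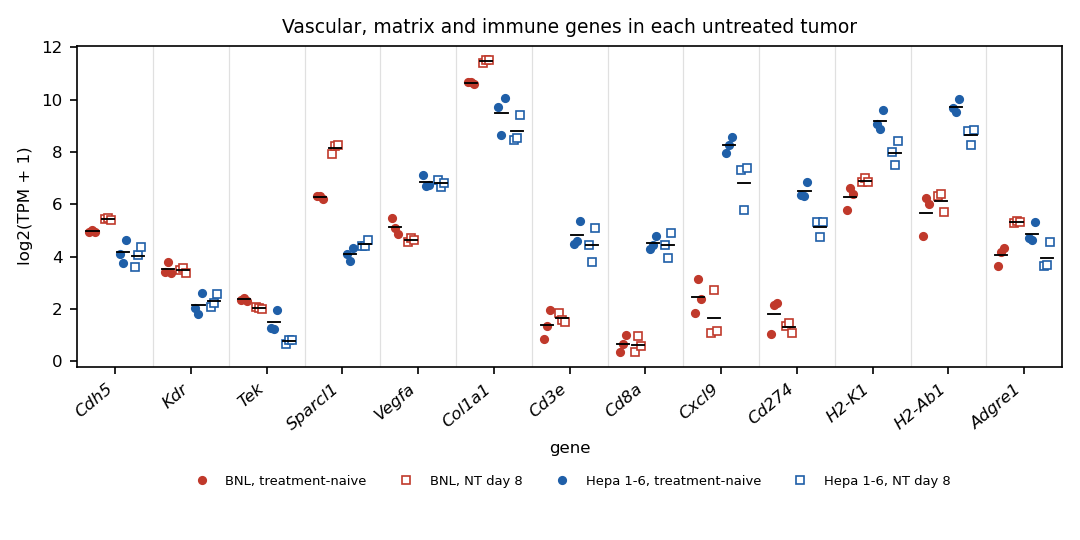
Each point is the log2(TPM + 1) of 1 tumor, for genes along the horizontal axis and for BNL and Hepa 1-6 before treatment and on NT day 8 (3 tumors each), and short lines mark group means. Cdh5, Kdr, Tek, Sparcl1 and Col1a1 are higher in BNL at both times, Vegfa, Cd3e, Cd8a, Cxcl9, Cd274, H2-K1 and H2-Ab1 are lower in BNL at both times, and Adgre1 changes sides between the times.

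Ligands that act on vessels were mixed. Vegfa, the main growth factor of vessels, was at 43.2, 33.6 and 27.9 TPM in BNL and 139.9, 102 and 106 TPM in Hepa 1-6 (difference -1.71, SE 0.19, adjusted p = 0.000289), and on day 8 at 22.9, 25.2 and 24 against 119.8, 101 and 112 TPM (difference -2.16, SE 0.081, adjusted p = 2.71e-06), with no overlap at either time. Of 25 ligands and regulators of vessel growth, 3 (Angptl4, Hgf and Vegfc) were higher and 12 lower in BNL before treatment, and 9 and 7 of 26 on day 8. Hgf, the ligand of MET, was higher in BNL at 20.2, 20.9 and 21.8 against 3.78, 2.89 and 4.15 TPM (difference 2.26, SE 0.13, adjusted p = 1.93e-05). The inhibitor of vessel growth Thbs1 was lower in BNL at 21, 17.7 and 19.7 against 115, 107 and 136 TPM (difference -2.55, SE 0.12, adjusted p = 7.62e-06), as was angiogenin, Ang, at 1.83, 1.99 and 2.38 against 52.3, 44.9 and 44.5 TPM (difference -3.98, SE 0.12, adjusted p = 1.32e-06). Angptl4 was higher in BNL, at 48, 44.4 and 56.7 against 13.8, 10.5 and 15.3 TPM.

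Genes of glycolysis and of the response to low oxygen were lower in BNL, 28 of 32 before treatment and 24 of 32 on day 8. The median difference was -1.18 before treatment, beside -0.16 over all genes. The glucose transporter Slc2a1 was at 23.6, 20.4 and 20.3 TPM in BNL and 97.9, 73.2 and 85.2 TPM in Hepa 1-6 (difference -1.94, SE 0.13, adjusted p = 3.13e-05). Egln3, an oxygen-sensing prolyl hydroxylase that low oxygen induces, was at 8.11, 8.94 and 9.44 against 73.8, 54.1 and 58.7 TPM (difference -2.67, SE 0.14, adjusted p = 1.02e-05), and Pdk1, which holds pyruvate back from mitochondria, at 12.4, 14.7 and 10.4 against 51.4, 41 and 49.3 TPM (difference -1.84, SE 0.15, adjusted p = 7.73e-05). The only member higher in BNL before treatment was the carbonic anhydrase Car9, at 6.78, 7.29 and 5.53 against 2.48, 2.13 and 1.59 TPM.

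Receptor genes differed one by one. Among the 10 tested receptor genes that lenvatinib (LEN), the kinase inhibitor of the study, is known to inhibit, 4 (Fgfr1, Kdr, Pdgfra and Ret) were higher and 3 (Fgfr4, Flt1 and Flt4) lower in BNL. On day 8 5 (Fgfr1, Kdr, Kit, Pdgfra and Ret) of 9 were higher and 4 (Fgfr2, Fgfr4, Flt1 and Flt4) lower. Pdgfra, a receptor of fibroblasts, was at 58.9, 55.8 and 65.9 TPM in BNL and 20.3, 10.3 and 23 TPM in Hepa 1-6 (difference 1.77, SE 0.27, adjusted p = 0.00141), and Ret at 6.59, 5.08 and 4.9 against 0.18, 0.4 and 0.42 TPM (difference 2.29, SE 0.18, adjusted p = 7.53e-05). Fgfr4, the FGF receptor of hepatocytes, was at 0.05, 0.02 and 0.03 against 9.53, 8.83 and 7.7 TPM (difference -3.22, SE 0.16, adjusted p = 8.76e-06). The liver hormone Fgf21 was at no more than 0.26 TPM in any of the 6 treatment-naive tumors and, like the coreceptor Klb, was too low to test. Of 19 other growth factor and cytokine receptors, 5 (Axl, Ghr, Igf1r, Pdgfrb and Tyro3) were higher and 10 lower, with Ghr, the growth hormone receptor, at 65.2, 55.4 and 49.1 against 14.6, 12.6 and 11.7 TPM and Lifr, the receptor of leukemia inhibitory factor, at 5.93, 7.31 and 9.35 against 89.5, 77.3 and 74.2 TPM. On day 8, 8 of these were higher and 6 lower.

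**Figure D4:**
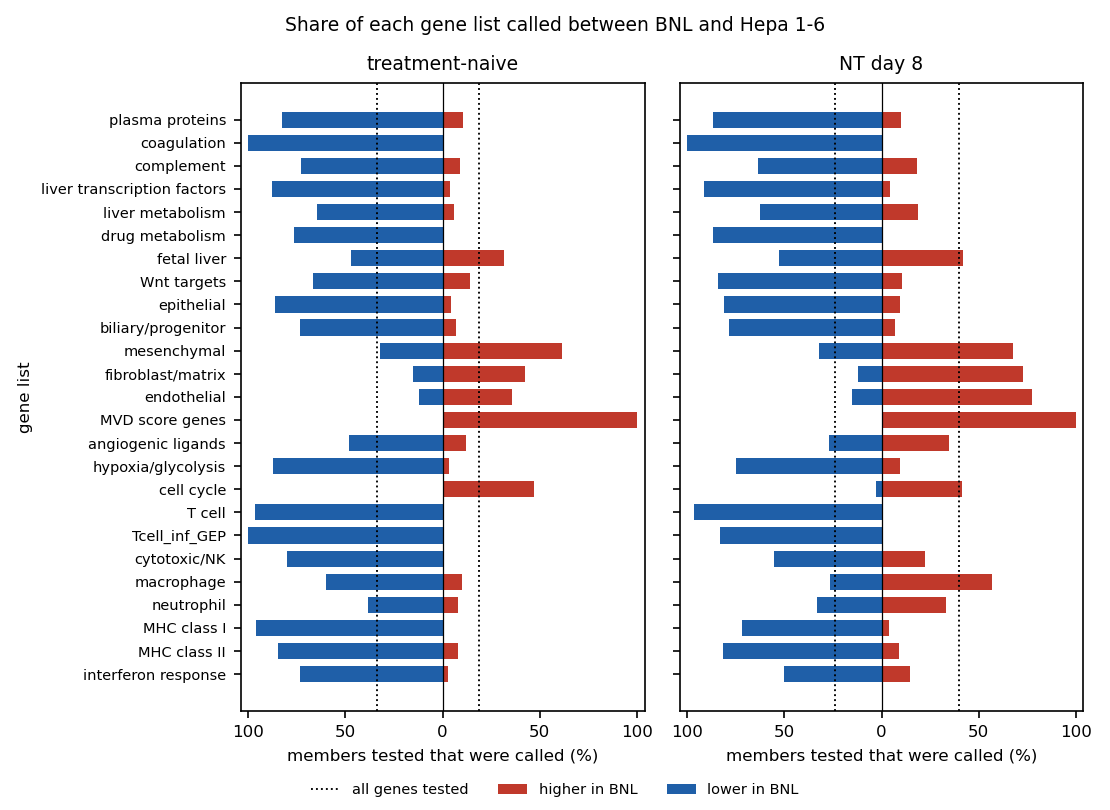
For each gene list, the bars give the percent of tested members called higher (to the right) and lower (to the left) in BNL than in Hepa 1-6, in treatment-naive and in NT day 8 tumors, and the dotted lines give the same percent over all genes tested. The bars of lists low in BNL, above all plasma proteins and coagulation, are in part set by the minimum level. Plasma protein, liver factor, Wnt, epithelial, T cell and MHC lists lie on the lower side at both times, matrix, endothelial and MVD score lists on the higher side, and the macrophage list has more members lower in BNL before treatment and more higher on day 8.

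T cell genes were lower in BNL, 28 of 29 before treatment and 27 of 28 on day 8, with none higher. Summed over the list, T cell RNA was at 46.3 to 70.1 TPM in BNL and 439.9 to 609 TPM in Hepa 1-6 before treatment. Cd3e, a chain of the T cell receptor complex, was at 0.8, 1.55 and 2.95 TPM in BNL and 21.4, 23.6 and 39.8 TPM in Hepa 1-6 (difference -3.42, SE 0.34, adjusted p = 0.000178), and Cd8a, the coreceptor of cytotoxic T cells, at 0.27, 0.59 and 1.03 against 18.8, 20.6 and 26.5 TPM (difference -3.83, SE 0.21, adjusted p = 1.53e-05). The inhibitory receptor Tigit was at 0.68, 1.06 and 1.17 against 40.6, 25.4 and 36.2 TPM (difference -4.14, SE 0.20, adjusted p = 8.41e-06). The exception was Foxp3, the factor of regulatory T cells, which was at 0.53, 1.06 and 1.58 against 2.19, 1.78 and 1.65 TPM, with a difference of -0.51 (SE 0.24, adjusted p = 0.116). Granzyme B (Gzmb), a protease of cytotoxic granules, was at 1.19, 4.28 and 6.08 against 32, 32.9 and 71.9 TPM (difference -3.32, SE 0.49, adjusted p = 0.00112) before treatment. On day 8 Gzmb was at 2.74, 3.45 and 2.82 against 9.18, 3.43 and 7.82 TPM, where the models overlapped, and its call (difference -0.88, SE 0.31, adjusted p = 0.0418) was lost without single tumors. Of 20 cytotoxic and natural killer cell genes 16 were lower before treatment, and on day 8 10 were lower and 4 (Gzma, Gzmc, Ncr1 and Xcl1) higher of 18. Of 8 B cell genes 7 were lower before treatment and 4 of 6 on day 8, and the immunoglobulin κ constant gene Igkc was at 0.41, 2.45 and 1.57 against 146, 545 and 238 TPM.

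The 18 genes of the T cell-inflamed profile (Tcell_inf_GEP) were all lower in treatment-naive BNL, with a median of -3.62, and 15 were lower on day 8, with a median of -2.48. The chemokine Cxcl9, which interferon-γ induces, was at 2.58, 7.88 and 4.3 TPM in BNL and 251, 311 and 384 TPM in Hepa 1-6 (difference -5.82, SE 0.33, adjusted p = 1.55e-05). Cd274, which encodes PD-L1, was at 1.05, 3.41 and 3.71 against 81.9, 78.9 and 114 TPM (difference -4.71, SE 0.33, adjusted p = 3.88e-05), and Pdcd1lg2, which encodes PD-L2, at 0.32, 1.95 and 2.15 against 50.1, 42.8 and 60.3 TPM (difference -4.48, SE 0.34, adjusted p = 5.39e-05). Ido1, which breaks down tryptophan, was at 0.05, 0.45 and 0.31 against 15.6, 17.6 and 11.4 TPM (difference -3.64, SE 0.21, adjusted p = 1.71e-05). None of these overlapped. Of 34 interferon response genes, 25 were lower and 1 (Ifi27l2a) higher, with the guanylate-binding protein Gbp2 at 8.95, 21.3 and 15.8 against 599, 552 and 772 TPM (difference -5.36, SE 0.29, adjusted p = 1.34e-05). On day 8, 17 were lower and 5 (Ifi27l2a, Ifi44, Ifit1, Ifit3 and Oas2) higher.

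Antigen presentation genes were lower in BNL as well. Of 25 MHC class I pathway genes 24 were lower, and of 13 class II genes 11 were lower and 1 higher. On day 8, 18 of 25 class I genes and 9 of 11 class II genes were lower, with 1 and 1 higher. H2-K1, a classical class I chain, was at 54.1, 99.3 and 83.9 TPM in BNL and 536, 474 and 787 TPM in Hepa 1-6 (difference -2.91, SE 0.27, adjusted p = 0.000128), and H2-Ab1, a class II chain, at 27, 75.3 and 63.6 against 820.4, 738 and 1031 TPM (difference -4.05, SE 0.36, adjusted p = 0.000117). The H2 genes are a family of similar and strain-specific sequences, BALB/c mice carry another H2 haplotype than the C57BL/6J reference genome, and reads of the other haplotype or of a similar family member may be lost or misplaced, so their values are uncertain. The single class II gene higher in BNL, H2-Ea-ps, a pseudogene in the reference strain, was at 31.3, 63.9 and 60.2 TPM in BNL and 0, 0.29 and 0 TPM in Hepa 1-6. Outside the H2 genes, all 15 tested members of the class I list were lower in treatment-naive BNL, with a median of -1.65, and 10 were lower and 1 (Pdia3) higher on day 8. B2m, the common light chain of class I molecules, was at 406, 593 and 441 against 2632, 2681 and 3008 TPM (difference -2.54, SE 0.15, adjusted p = 2.07e-05). 

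The calls of macrophage genes differed between the times. Before treatment 18 of 30 were lower and 3 (Ccr2, Cd14 and Cx3cr1) higher in BNL, with a median of -1.18, and on day 8 8 were lower and 17 higher, with a median of 0.71. The summed level of the list stayed lower in BNL without overlap, at 1113 to 1632 against 5231 to 6509 TPM before treatment and 3378 to 3712 against 4437 to 5133 TPM on day 8. This sum includes Apoe, given below, which hepatocytes also make and which took a large part of it in treatment-naive Hepa 1-6 tumors. The level of the list without Apoe was not tested. The mouse macrophage marker Adgre1, which encodes F4/80, was at 11.6, 17.3 and 19.4 TPM in BNL and 25, 23.8 and 38.7 TPM in Hepa 1-6 before treatment (difference -0.82, SE 0.24, adjusted p = 0.0257), and at 38.2, 40.4 and 39.5 against 11.4, 11.8 and 22.7 TPM on day 8 (difference 1.37, SE 0.24, adjusted p = 0.0026). The treatment-naive call of Adgre1 was lost with protein-coding rescaling (adjusted p = 0.1) and without BNL tumor 1 (0.0672) or Hepa 1-6 tumor 3 (0.065). Apoe, made by macrophages and hepatocytes, was at 178, 309.9 and 254 against 2380.1, 2978 and 2724 TPM (difference -3.47, SE 0.20, adjusted p = 1.88e-05), and the nitric oxide synthase Nos2 at 2.83, 2.4 and 2.16 against 93.4, 61.2 and 124 TPM (difference -4.71, SE 0.24, adjusted p = 1.11e-05). The lysosomal glycoprotein gene Gpnmb differed by -3.98 (SE 0.20, adjusted p = 9.10e-06).

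Other myeloid genes were mixed. Before treatment, of 13 neutrophil genes 5 (Csf2, Cxcl2, Cxcl3, Il1r2 and Retnlg) were lower and 1 (Cxcl1) higher, and S100a8, the main calcium-binding protein of neutrophils, overlapped at 6.05, 9.48 and 6.52 against 3.75, 4.89 and 9.07 TPM, with a difference of 0.33 (SE 0.30, adjusted p = 0.388). Of 15 dendritic cell genes 9 were lower and 2 (Fscn1 and Siglech) higher, with the factor Irf8 at 11.9, 19.6 and 20.7 against 96.8, 100.3 and 127 TPM (difference -2.59, SE 0.22, adjusted p = 8.78e-05). The summed level of the dendritic list changed sides. It was 465 to 517 TPM in BNL against 533 to 680.5 TPM in Hepa 1-6 before treatment, and 586 to 639 against 285 to 414 TPM on day 8. Of 19 myeloid chemokine and cytokine genes 13 were lower and 2 (Ccl2 and Ccl12) higher, and Ccl24, which attracts eosinophils, was at 1.14, 2.53 and 6.69 against 330.4, 238 and 284 TPM (difference -6.19, SE 0.43, adjusted p = 3.66e-05). The summed level of these genes was at 459 to 841 against 2460.2 to 3358 TPM before treatment and overlapped on day 8, at 684 to 753 against 639.9 to 1454 TPM. On day 8 the neutrophil list had 5 of 15 genes lower and 5 higher, the dendritic list 7 of 13 lower and 3 (Cacnb3, Cd209a and Fscn1) higher, and the chemokine list 10 of 19 lower and 5 higher. The acute-phase gene Saa3 overlapped between the models, at 3.12, 47.3 and 10.2 against 17.4, 32.5 and 74.4 TPM, with a difference of -1.46 (SE 0.90, adjusted p = 0.215).

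Proliferation genes were somewhat higher in BNL before treatment. Of 36 cell cycle genes, 17 were higher and none lower before treatment, with a median of 0.29. On day 8 15 were higher and 1 (Cdt1) lower, beside 39.6% higher and 23.9% lower over all genes. These counts became 9 and 9 with upper-quartile rescaling. Mki67, the proliferation marker Ki-67, was at 89.2, 84.8 and 77.5 TPM in BNL and 59.7, 54.6 and 60.4 TPM in Hepa 1-6 (difference 0.52, SE 0.091, adjusted p = 0.00274), and the replication gene Mcm5 at 72.6, 63.4 and 56.5 against 25.6, 23.1 and 26.8 TPM (difference 1.31, SE 0.12, adjusted p = 0.000123). Cdkn2a, the locus of the inhibitors p16 and p19Arf, was lower in BNL but present in both models, at 6.49, 5.16 and 8.7 against 21.3, 19.6 and 16 TPM (difference -1.37, SE 0.19, adjusted p = 0.000884). Of 22 p53 target and inhibitor genes, 10 were lower and 2 (Phlda3 and Sesn1) higher. On day 8 11 of 21 were lower and 6 higher.

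Of the protein-coding genes, those with the largest differences in the direction of BNL were of several kinds. Crabp1, a binding protein of retinoic acid in embryonic tissue, was at 1101, 1003 and 884 TPM in BNL and 0.13, 0 and 0 TPM in Hepa 1-6 (difference 9.90, SE 0.11, adjusted p = 3.30e-08). Col7a1, the collagen that anchors epidermis to dermis, was at 434, 376 and 422 against 2.54, 2.22 and 2.33 TPM (difference 6.93, SE 0.095, adjusted p = 5.79e-08), with skin genes near 0 in every tumor. Tenm3, a teneurin of the nervous system, was at 58.3, 50.3 and 54.9 against 0.59, 0.45 and 0.35 TPM (difference 5.25, SE 0.12, adjusted p = 5.32e-07), and Ucn2, a peptide of the corticotropin-releasing family, at 36.4, 27 and 31.6 against 0.09, 0.16 and 0.1 TPM (difference 4.86, SE 0.15, adjusted p = 1.32e-06). The prolactin family genes Prl2c2 and Prl2c3 were at 81.9, 83.3 and 65.4 and at 44.4, 37.9 and 40.4 TPM in treatment-naive BNL, but at 4.89, 2.54 and 1.29 and at 1.32, 1.13 and 0.28 TPM in the BNL tumors of day 8. Both have near-identical copies between which reads may be split, as do the rest of the 10 largest, Gm10260, Hist1h2ak and Eno1b, so their values are uncertain. Hmga2, given above, completes these 10. In the direction of Hepa 1-6 the 10 largest were Alb, Igfbp1, Rbp4, Trf, Afp and Nkd1, given above, with Habp2, a plasma protease of the liver (201, 180.3 and 165 against 0.03, 0.13 and 0 TPM), Itih2, a plasma protease inhibitor (150.3, 149 and 133 against 0.13, 0.35 and 0.74 TPM), H2-M2 and Crisp1.

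The difference between the models changed from the treatment-naive tumors to day 8 for 5362 of 17152 genes (31.3%), with 4956 (28.9%) moving toward BNL and 406 (2.37%) toward Hepa 1-6. This imbalance went with the scaling, since upper-quartile rescaling gave 1254 (7.32%) and 1296 (7.56%) genes, 14.9% in all, and 1026 and 396 kept their call in all 3 scalings. Several liver and epithelial genes were lower in the BNL tumors of day 8 than in the treatment-naive ones, while Cebpa, given above, was higher. In BNL the summed level of the liver factor list was 215 to 242 TPM before treatment and 277 to 302 TPM on day 8. That of the plasma protein list was 630.2 to 807 TPM and then 1952 to 2182 TPM. That of the epithelial list was 266 to 308 TPM and then 166 to 200.4 TPM. The lists therefore did not move one way. Treatment-naive non-liver models also had plasma protein RNA, with means of 201 to 1553 TPM. The summed macrophage list rose in BNL as well, from a range of 1113 to 1632 TPM to one of 3378 to 3712 TPM. Which members carry the rise of the plasma protein sum was not tested. Gpc3 was at 0.82, 0.54 and 0.56 TPM in BNL on day 8, against 2.97, 3.08 and 2.19 TPM before, and its difference to Hepa 1-6 changed by -1.81 (SE 0.19, adjusted p = 0.000415). Krt18 was at 14.1, 8.91 and 4.48 TPM on day 8 (change -2.27, SE 0.41, adjusted p = 0.00311), Krt8 at 17.9, 12.2 and 7.67 TPM (change -2.05, SE 0.30, adjusted p = 0.00138) and Krt19 at 8.88, 5.45 and 2.37 TPM (change -2.72, SE 0.47, adjusted p = 0.00273). Hnf4a, at 1.38, 0.64 and 0.8 TPM on day 8 (change -1.10, SE 0.28, adjusted p = 0.0142), Foxa2 (change -0.97, SE 0.19, adjusted p = 0.00438) and Cdh1 (change -1.28, SE 0.29, adjusted p = 0.00885) moved the same way. These 3 lost the call when tumor number was a block, as did Cebpa (adjusted p = 0.0671) for its change toward BNL. That block leaves the day 8 contrast to tumors 3 and 4, the only numbers that both models share on that day. Genes that moved toward BNL included the matrix gene Mfap4, at 147, 197 and 147 TPM in BNL on day 8 against 15.3, 16.5 and 15.8 TPM before (change 3.74, SE 0.44, adjusted p = 0.00058), and Igfbp2, at 42.2, 52.2 and 28 against 0, 0.74 and 1.05 TPM (change 5.40, SE 0.45, adjusted p = 0.000149). The sex-linked RNA Xist had the change -5.45 (SE 0.22, adjusted p = 1.33e-06), and Y-linked genes changed with it. The tumor volume, the day and the sex-linked RNA of the BNL tumors all differ between these sets and cannot be told apart.

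Against the 29 treatment-naive tumors of the 10 other models, 3482 (19.8%) of 17542 genes were higher and 5149 (29.4%) lower in BNL, 49.2% in all, and 6074 (34.6%) were higher and 4272 (24.4%) lower in Hepa 1-6, 59% in all. For Hepa 1-6, upper-quartile rescaling gave 5061 higher and 5464 lower of 17542, and protein-coding rescaling 4769 and 6924 of 20351, so that balance went with the scaling. Both comparisons share these reference tumors, and each is given by its own values. Summed plasma protein RNA was at 7484 to 7954 TPM in Hepa 1-6 and 630.2 to 807 TPM in BNL, beside model means of 201 to 1553 TPM in the non-liver models. Of the 47 members 25 were tested here, and 13 of these reached 1 TPM in Hepa 1-6 but not in the non-liver tumors, so no count is given for either model. Liver transcription factors gave 21 of 23 higher in Hepa 1-6, and 6 higher and 8 lower in BNL, where 6 of the 23 reached 1 TPM in Hepa 1-6 but not in the non-liver tumors and so had to be higher in Hepa 1-6. Between BNL and the non-liver tumors, 5 of the 23 reached 1 TPM only in the latter and 2 only in BNL. The direction of these in BNL was set by the minimum as well. The balance in BNL turned with the scaling, to 9 higher and 8 lower with upper-quartile and 10 and 7 with protein-coding rescaling. By mean TPM, Hnf4a and Foxa2 each ranked 1 of 12 in Hepa 1-6 and 2 of 12 in BNL. BNL exceeded the non-liver models by 1.94 (SE 0.11, adjusted p = 5.37e-14) for Hnf4a and by 1.07 (SE 0.098, adjusted p = 8.84e-10) for Foxa2. Hnf4a and Foxa2 are the 2 factors that reached 1 TPM in BNL but not in the non-liver tumors. The direction of both differences was therefore set by the minimum, and their p-values do not test it.

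For the other programs, the T cell list had 29 of 29 genes higher in Hepa 1-6 than in the non-liver models, and 2 (Tcf7 and Tnfrsf9) higher and 11 lower in BNL. The Wnt list had 17 of 19 higher in Hepa 1-6, and 9 higher and 5 lower in BNL. Of the tested members, 7 of 29 in the T cell list and 4 of 19 in the Wnt list reached 1 TPM in Hepa 1-6 but not in the non-liver tumors, so their direction was set by the minimum. For BNL, 6 of 29 and 3 of 19 reached it in the non-liver tumors but not in BNL, which set their direction there. The MVD score genes had 6 of 6 higher in BNL and 2 of 6 (Kdr and Sparcl1) lower in Hepa 1-6. The call of Sparcl1 in Hepa 1-6 was lost without Hepa 1-6 tumor 2 (-0.37, adjusted p = 0.0864), and with either rescaling 4 of the 6 were lower in Hepa 1-6. Cd274 ranked 1 of 12 in Hepa 1-6 and 12 of 12 in BNL, and Vegfa 3 and 12. Cdh5 ranked 1 in BNL and 6 in Hepa 1-6, and Gpc3 ranked 1 in Hepa 1-6 and 4 in BNL. The tumors of BNL overlapped those of the next model for Foxa2 and Gpc3, and also for Cdh5, Vegfa and Cd274, so its place beside that neighbour is within the spread. Skeletal muscle RNA also set BNL apart, with 14 of 14 list genes higher than in the non-liver models.

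**Figure D5:**
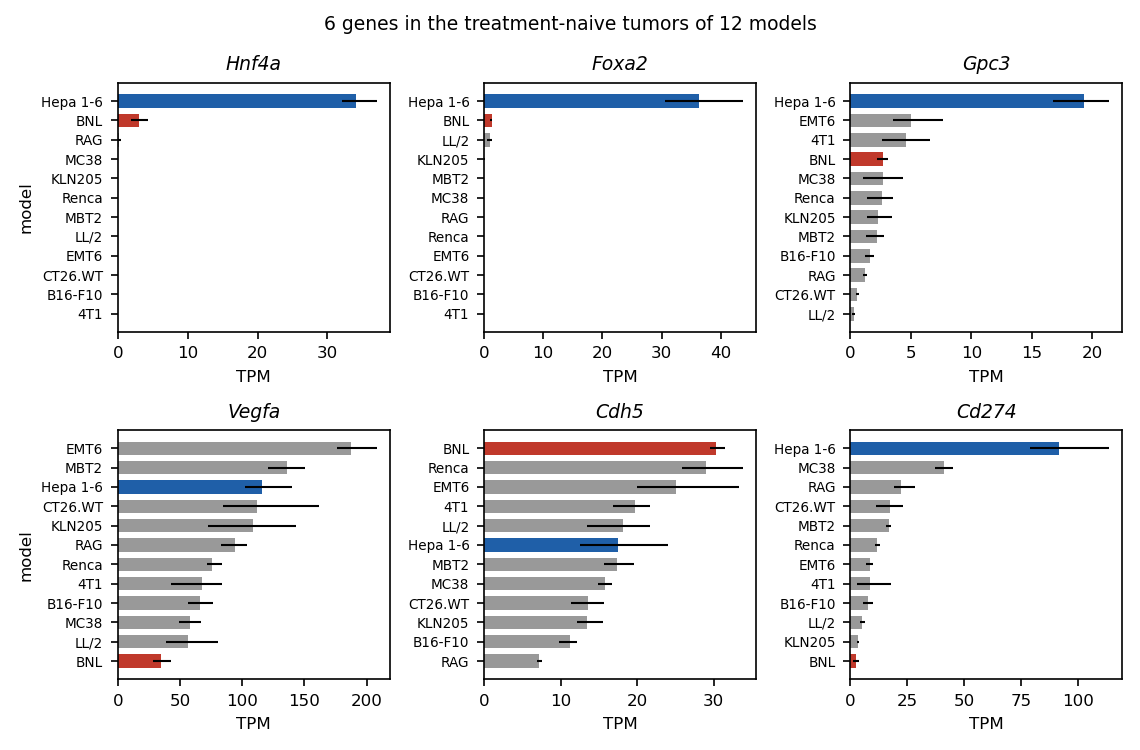
Bars give the mean TPM of Hnf4a, Foxa2, Gpc3, Vegfa, Cdh5 and Cd274 in the treatment-naive tumors of each of the 12 models, and lines run from the lowest to the highest tumor (2 or 3 tumors per model). Hepa 1-6 has the highest bar for Hnf4a, Foxa2, Gpc3 and Cd274, and BNL the highest for Cdh5 and the lowest for Vegfa and Cd274.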

How the data were processed

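The samples were whole subcutaneous tumors. Per the methods and labels, the authors depleted libraries of ribosomal RNA, trimmed reads with Trimmomatic 0.36, aligned them to GRCm38 with STAR 2.5.2b and quantified genes by RSEM 1.2.31. The authors deposited TPM, which keep no depth, so counting precision is unknown and no count test was run. The reference is of C57BL/6J, and losses of BALB/c reads were not measured.

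Groups were taken from the labels. Models were compared with limma 3.58.1 in R 4.3.3 (lmFit, eBayes with a mean-variance trend) on log2(TPM + 1), over genes with a mean of at least 1 TPM in the fitted tumors, with Benjamini-Hochberg adjustment over all genes tested and a threshold of 0.05. The fit was tested on simulated data. Gene types came from GENCODE M21 (50376 of 50686 IDs), and plots used matplotlib 3.10.9. Named genes were 48 anchors, the 4 largest called differences of each of 43 lists, the 10 largest protein-coding differences each way and the 5 largest changes between the times each way, a few of which are not reported here. The tumors, lists and anchors were chosen with earlier results of these data known. Alternatives were another pseudocount or minimum, upper-quartile and protein-coding rescaling, no trend, a replicate block and leaving out each tumor.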

Additional observations from a re-analysis of the deposited data

Results flagged for a closer look

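The results given here are those in which the difference between BNL and Hepa 1-6 in NT day 8 tumors departed from that in treatment-naive tumors, by limma's test of the change itself. Over all 17152 genes tested, 4956 (28.9%) changed toward BNL and 406 (2.37%) toward Hepa 1-6. With upper-quartile rescaling the counts were 1254 and 1296, so this imbalance went with the scaling. The treatment-naive BNL tumors differ from those of day 8 in sex-linked RNA, and Xist changed by -5.45. Muscle RNA in BNL was at 409.6 to 965 TPM before treatment and at 55.6 to 163 TPM on day 8, and its part in the changes was not tested.

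Among genes of liver and epithelial identity, the difference changed by -1.81 for Gpc3, -2.27 for Krt18, -2.05 for Krt8, -2.72 for Krt19, -1.10 for Hnf4a, -0.97 for Foxa2, -1.28 for Cdh1 and -1.05 for Cdh2, all toward Hepa 1-6. Smaller changes in the same direction were -0.77 for Apoa1 and -0.81 for Igf2, and both lost the call under several alternatives. The imprinted RNA H19 changed by -2.30. Cebpa moved the other way, by 1.48. With a replicate block the changes of Hnf4a, Foxa2, Cdh1, Apoa1, Igf2 and Cebpa were no longer called.

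Toward BNL, the difference changed by 2.19 for the macrophage gene Adgre1, by 1.84 for H2-K1, by 3.84 for the immunoglobulin μ gene Ighm and by 1.48 for the vessel gene Sparcl1. The largest changes toward BNL were 6.36 for Gm24853, 5.40 for Igfbp2, 5.35 for Gm24879, 3.84 for Ighm and 3.74 for Mfap4. The largest toward Hepa 1-6 were -5.65 for Gm26992, -5.49 for Gm16550, -5.45 for Xist, -5.20 for AC154540.1 and -4.59 for Gm22657. The small RNA genes among these were listed at 0 in some tumors and at 2.79 to 73.8 TPM in others, and Gm16550, Gm22657 and Gm24853 lost the call under a rescaling. With a replicate block, H2-K1, Gm16550, Gm24853 and Gm26992 lost it.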

How the results depend on the processing

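Depth is unknown, so precision rests on the 3 tumors of each group. Of the values recomputed for the treatment-naive contrast, 2765 kept direction and side of the threshold, 54 lost and 6 gained the call, and 2 changed sign, those of Pecam1. For day 8 the numbers were 2468, 53, 16 and 21. The cause was not tested. With protein-coding rescaling, 5375 treatment-naive genes were higher in BNL and 4588 lower, and 4769 genes were higher and 6924 lower in Hepa 1-6 than in the non-liver models. For the change between the times, upper-quartile rescaling gave 1254 genes toward BNL and 1296 toward Hepa 1-6, and protein-coding rescaling 1076 and 1239. Leaving out single treatment-naive tumors gave 2590 to 3076 genes higher and 4927 to 6125 lower.

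Tumors that share a number did not deviate together (correlations -0.004 to 0.026 before treatment, 0.0025 and -0.016 on day 8). Tumors with different numbers had correlations of -0.057 to 0.035 before treatment. This gave no sign of a pairing but cannot exclude one. On day 8 the models share only the tumor numbers 3 and 4, so a replicate block leaves the contrast of that day to these tumors. With a replicate block, 3810 genes were higher and 2533 lower on day 8, 728 changed toward BNL and 94 toward Hepa 1-6, and Ighm (-0.22) and S100a8 (-0.20) changed sign on day 8, while 3046 and 5641 were called before treatment. On day 8 the block ended the calls of 18 named genes (Adgre1, Atp2a1, Ccl5, Chil3, Cish, Fas, Gzmb, H19, H2-K1, Hbb-bt, Krt19, Mertk, Mki67, Mmp13, Nos2, Pecam1, Plin4 and Rrm2), and it ended 10 of the named changes between the times.

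Uncalled day 8 values changed sign with upper-quartile rescaling for Cebpa (-0.21, and -0.11 with protein-coding rescaling), Ighm (-0.045) and S100a8 (-0.051). Without single tumors, the difference on day 8 ran from -0.36 to 0.052 for Anpep, -0.077 to 0.12 for Cebpa, -0.18 to 0.089 for Eif2s3y, -2.13 to 0.088 for Gm22657, -0.32 to 0.71 for Ighm, -0.66 to 1.23 for S100a8 and -0.12 to 0.068 for Uty. The treatment-naive difference of Pecam1 ran from -0.061 to 0.20. None of these was called with all tumors, except Pecam1 on day 8.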

Other observations

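Several gene groups outside the programs above also differed. Of 20 genes of the defense against oxidants, 10 were lower and 2 (Cbr3 and Nqo1) higher in treatment-naive BNL, with a median of -0.55. Slc7a11, which imports cystine for glutathione, was at 0.95, 1.2 and 0.92 TPM in BNL and 31.8, 23 and 36.2 TPM in Hepa 1-6 (difference -3.93, SE 0.18, adjusted p = 7.42e-06). Osgin1, a target of NRF2, was at 2.92, 2.56 and 2.82 against 17.1, 19.1 and 20.2 TPM (difference -2.39, SE 0.12, adjusted p = 8.61e-06), and the peroxidase Prdx1 at 154, 170.3 and 155 against 525, 486 and 639 TPM (difference -1.77, SE 0.12, adjusted p = 3.28e-05). These genes did not overlap between the models. On day 8, 11 members were lower and 7 higher.

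Genes of lipid and cholesterol synthesis had no common direction before treatment, with 6 higher and 8 lower of 28, and on day 8 6 were higher and 16 lower. Mevalonate kinase, Mvk, was at 16.6, 17.8 and 15.5 TPM in BNL and 8.74, 6.95 and 4.09 TPM in Hepa 1-6 (difference 1.26, SE 0.23, adjusted p = 0.00328), and the desaturase Scd2 at 107, 109.6 and 91.8 against 300.3, 246 and 216 TPM (difference -1.29, SE 0.14, adjusted p = 0.000281). Among 20 imprinted genes 7 were higher and 2 (Gnas and Igf2) lower in BNL, with Mest at 34.9, 41.8 and 52.6 against 6.97, 4.38 and 7.29 TPM (difference 2.62, SE 0.21, adjusted p = 8.08e-05) and Sgce at 21.7, 22 and 19 against 3.11, 2.69 and 4.76 TPM (difference 2.30, SE 0.18, adjusted p = 6.89e-05). On day 8 11 of 18 were higher and 2 (Gnas and Igf2) lower, and Mest was at 153, 224 and 160.1 against 6.08, 9.05 and 9.34 TPM. Of 21 immune checkpoint and suppressor genes, 16 were lower and 3 (Ptges, Tgfb2 and Tgfb3) higher in BNL before treatment, and 11 were lower and 5 higher on day 8. Their summed level was 358 to 498 against 825 to 1174 TPM before treatment and overlapped on day 8, at 505 to 572 against 485 to 616 TPM. Of 17 genes of the acute phase and its signaling 9 were lower and 1 (Lrg1) higher, with Lbp, the binding protein of bacterial lipopolysaccharide, at 8.42, 9.69 and 8.2 against 175, 135 and 155 TPM (difference -3.99, SE 0.12, adjusted p = 1.32e-06). On day 8 10 of 15 were lower.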
